A study of Rattus norvegicus with 46 samples.

Results

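Gene expression changes after myocardial infarction (MI) were set against those after ascending aortic banding (AB) in the rat left ventricle. The comparison took 30 of the 46 arrays of the series, 12 from the infarction experiment and 18 from the banding experiment, chosen by their labels alone. Both models used male Wistar rats, whose age is not given in the sources used here. In the MI model the left anterior descending coronary artery was tied off with silk, and the left ventricle was taken 3 weeks (4 arrays) or 9 weeks (4 arrays) later. Only hearts with large transmural infarcts were kept, and their scar was cut away and discarded, so the MI arrays report the surviving myocardium. MI shams had the suture passed and withdrawn, with 2 arrays at each time. In the AB model a titanium clip narrowed the ascending aorta, and hearts were collected 6, 12, 16 or 30 weeks later, with 4 arrays at 30 weeks and 2 at every earlier time. AB shams had the same operation without the clip, with 2 arrays at each of the 4 times. Each array held a pool of RNA from several animals of 1 group, so every error and p-value measures the spread between pools. The models shared no time point, and the nearest were 9 weeks of MI and 6 or 12 weeks of AB.

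Banding raises the pressure against which the whole ventricle ejects, and myocytes thicken by adding sarcomeres side by side. After infarction the muscle that survives carries the work of the lost wall, and the chamber dilates. Both loads are known to bring back genes of the fetal ventricle, to lower the enzymes of fatty acid oxidation and to raise the extracellular matrix made by fibroblasts. The comparison addressed which of these responses differed between the loads.

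Values were log2 of the deposited intensities of 8740 probe sets, and each effect was the operated mean minus the mean of its own shams. The MI effect averaged 2 times, the AB effect averaged 4, and their difference is given as MI minus AB, so that a positive value means a higher response after MI. A probe set was called when the limma p-value, adjusted by the Benjamini-Hochberg method over all probe sets, was below 0.05. Each gene was read from its brightest probe set with a single symbol, which gave 4736 genes. Array medians ran from 1003 to 1084, each array correlated at 0.965 to 0.992 with the nearest array of its group, and the pairs at 12 weeks of AB were the least alike. Myocyte markers were bright on all 30 arrays: the summed level of the 12 measured of 15 ran from 18.49 to 18.84 after MI, from 18.53 to 18.78 in MI shams, from 18.05 to 18.88 after AB and from 17.88 to 18.85 in AB shams (log2 of summed intensity). None of those 12 markers passed in either model, with 1 (MI) and 0 (AB) below an unadjusted p of 0.05. Over all genes 10.7% (MI) and 18.3% (AB) were below it. Under quantile normalization 1 marker fell after AB. Without the 12-week AB arrays 5 rose after AB at an unadjusted p below 0.05. The markers' median effect was 0.01 and 0.07 at 3 and 9 weeks of MI. It was 0.43, -0.16, 0.39 and -0.13 at 6, 12, 16 and 30 weeks of AB, so the AB mean joined times of opposite sign. In such bulk samples, fewer cells of a type and less RNA per cell cannot be told apart.

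Every gene that passed in both models moved the same way in both. By limma, 98 genes (2.07% of all genes) passed after MI, 83 higher (1.75%) and 15 lower (0.317%), and 271 genes (5.72%) passed after AB, 166 higher (3.51%) and 105 lower (2.22%). Of these, 63 passed in both models, which was 64.3% of the MI calls and 23.2% of the AB calls. The shared set held 52 genes that were higher in both, 11 lower in both and 0 that moved in opposite directions. Over all 8740 probe sets, 171 (1.96%) passed after MI, 149 higher (1.70%) and 22 lower (0.252%), and 460 (5.26%) after AB, 287 higher (3.28%) and 173 lower (1.98%). Quantile normalization gave 118 higher and 43 lower for MI and 239 higher and 288 lower for AB, and subtraction of array medians gave 215 higher and 218 lower for AB. The MI count rested on single arrays: it was 66 without MI 3-week sham replicate 2, 86 without MI 9-week sham replicate 5 and 293 without MI 9-week replicate 4. An unadjusted p below 0.05 was reached by 11.1% of probe sets after MI and 17.4% after AB, and by 10.7% and 18.3% of genes. Where an array of a pair of shams was left out, the lone remaining array was assumed to vary like the other groups. Of the 63 shared genes, 25 kept both calls in all 30 fits that left out an array, among them Nppa, Nppb, Acta1, Csrp2, Decr1, Col3a1, Postn, Fn1, Vim, Gpx3, Lyz2 and Bgn.

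No probe set passed for the difference between the responses. By limma, 0 of 8740 probe sets (0%) were called for MI minus AB, the smallest adjusted p was 0.178, and 617 (7.06%) had an unadjusted p below 0.05, 353 of them higher after MI and 264 lower, as had 337 of 4736 genes (7.12%). The methods' analysis of variance on array ratios, which leaves out the spread of the shams, gave 27 after Benjamini-Hochberg and 3 after Bonferroni adjustment, and the MI response at 9 weeks alone against the AB response gave 6 by limma. Leaving out an array gave 1 to 15 calls for 10 of the 30 arrays: 15 without AB 12-week sham replicate 4, 7 without MI 3-week sham replicate 1, 3 without AB 6-week sham replicate 3, 2 each without MI 9-week sham replicate 6 and AB 16-week replicate 1, and 1 each without MI 3-week sham replicate 2, MI 9-week sham replicate 5, MI 9-week replicate 1, AB 12-week replicate 1 and AB 16-week sham replicate 3. The design set the precision: the median standard error of the difference was 0.134 log2 and its 95% interval reached a median of 0.273 to either side, while the median size of the difference was 0.102. A difference of that median size was therefore not detectable with these arrays, and a p-value that misses the threshold does not show that the models act alike. All differences below are values with 95% intervals that are not adjusted for the number of genes, and later intervals stand in brackets without a label.

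Across probe sets the effects correlated at a Pearson r of 0.533 and a Spearman rho of 0.309, as a description over probe sets, which are not independent replicates; the models shared no arrays. The 2 effects had the same sign for 59.4% of all probe sets, for 163 of the 171 called after MI and for 402 of the 460 called after AB.

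**Figure D1:**
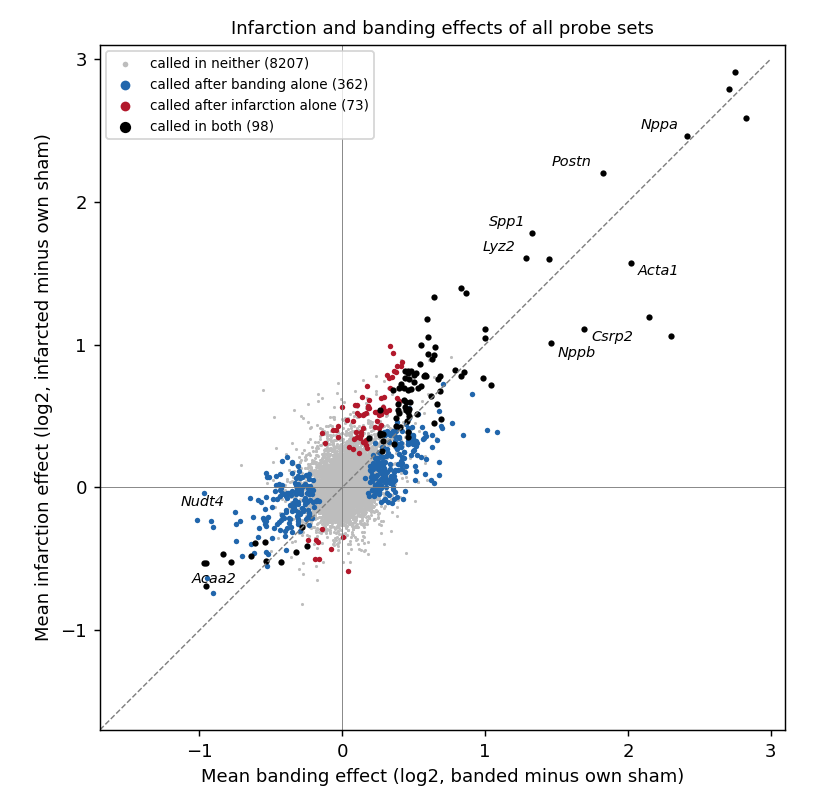
Mean effect of infarction (vertical axis) against mean effect of banding (horizontal axis), both in log2 against own shams, for 8740 probe sets. Colors mark probe sets called in both models (98), after banding alone (362), after infarction alone (73) or in neither (8207), the dashed line is equality, and Acta1, Csrp2 and Nppb lie below it while Nppa lies close to it.

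The natriuretic peptide genes and skeletal actin, genes of the fetal ventricle, rose in both models. Nppa, which codes for the atrial natriuretic peptide that wall stretch releases, was higher in every operated array than in any sham: the 8 infarcted arrays ranged from 14.95 to 15.43 (median 15.32) and their shams stood at 13.01 and 12.98 at 3 weeks and 12.60 and 12.61 at 9 weeks. The 10 banded arrays ranged from 14.71 to 15.61 (median 15.36) and their 8 shams from 12.24 to 13.63 (median 12.86). The MI effect was 2.46 ± 0.159 log2 (limma adjusted p = 3.07e-12), the AB effect 2.41 ± 0.125 log2 (limma adjusted p = 6.3e-15), and their difference 0.05 (95% interval -0.37 to 0.46, adjusted p = 0.98). Its other 3 probe sets gave differences of -0.24, 0.09 and 0.16.

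Nppb, the brain natriuretic peptide gene and neighbor of Nppa on chromosome 5, rose as well. For it the 8 infarcted arrays ranged from 13.94 to 14.67 (median 14.31) and their shams stood at 13.42 and 13.10 at 3 weeks and 13.38 and 13.32 at 9 weeks. The 10 banded arrays ranged from 14.18 to 14.92 (median 14.55) and their 8 shams from 12.70 to 13.66 (median 13.01). Every operated array was above its own shams in both models. The effect was 1.01 ± 0.16 after MI (adjusted p = 0.000246) and 1.46 ± 0.126 after AB (adjusted p = 7.6e-10), with a difference of -0.45 (95% interval -0.86 to -0.03, adjusted p = 0.674). Acta1, the skeletal muscle alpha-actin that the ventricle makes before birth, showed a similar pattern. On this probe set the 8 infarcted arrays ranged from 13.74 to 14.72 (median 14.04) and their shams stood at 12.71 and 12.59 at 3 weeks and 12.14 and 12.54 at 9 weeks. Banded arrays ranged from 14.54 to 15.15 (median 14.78) and their 8 shams from 12.35 to 13.38 (median 12.80). Infarcted arrays lay mostly below the banded ones, with an overlap at the top, while the sham ranges overlapped. Its effect was 1.57 ± 0.146 after MI (adjusted p = 8.55e-09) and 2.02 ± 0.115 after AB (adjusted p = 3.04e-14), and the difference was -0.45 (95% interval -0.83 to -0.07, adjusted p = 0.643).

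Csrp2, a LIM-domain protein of the actin cytoskeleton known from smooth muscle, followed the same order. Here the 8 infarcted arrays ranged from 10.45 to 11.45 (median 10.84) and their shams stood at 9.78 and 10.004 at 3 weeks and 9.68 and 9.53 at 9 weeks. After AB the arrays ranged from 10.77 to 12.46 (median 11.34) and their 8 shams from 9.42 to 9.96 (median 9.58). All operated arrays exceeded all shams. The effect was 1.11 ± 0.178 after MI (adjusted p = 0.000303) and 1.69 ± 0.14 after AB (adjusted p = 3.19e-10), and the difference of -0.59 (95% interval -1.05 to -0.12, adjusted p = 0.594) was the largest in size of these 4 genes. Nppb, Acta1 and Csrp2 thus had larger mean effects after AB and intervals that did not reach 0 before adjustment, and none of the 3 differences passed it.

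The promoters of these 4 genes are shown because the genes rose together in both models while 3 of them had the larger mean effect after AB. Each line gives the 250 bases before the start site, 5′ to 3′ on the gene's strand, from RefSeq (GRCr8): Nppa at chr5:163711934-163712183 (plus strand), Nppb at chr5:163699758-163700007 (plus), Acta1 at chr19:68784195-68784444 (minus) and Csrp2 at chr7:48235165-48235414 (plus). Capitals mark matches on either strand to the CArG box of serum response factor, the M-CAT element CATTCC, the GATA motif GATAA, the AP-1 site TGANTCA and the nuclear receptor half-site AGGTCA.
Nppa: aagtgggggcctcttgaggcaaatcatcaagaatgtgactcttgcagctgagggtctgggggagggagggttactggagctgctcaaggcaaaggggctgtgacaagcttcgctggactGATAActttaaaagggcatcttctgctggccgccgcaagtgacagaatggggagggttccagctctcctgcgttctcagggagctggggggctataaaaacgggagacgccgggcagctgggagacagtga
Nppb: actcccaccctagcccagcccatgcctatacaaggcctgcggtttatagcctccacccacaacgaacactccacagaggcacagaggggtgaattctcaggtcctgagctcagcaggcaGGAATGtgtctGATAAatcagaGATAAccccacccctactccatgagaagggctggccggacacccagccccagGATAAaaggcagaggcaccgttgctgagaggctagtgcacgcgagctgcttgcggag
Acta1: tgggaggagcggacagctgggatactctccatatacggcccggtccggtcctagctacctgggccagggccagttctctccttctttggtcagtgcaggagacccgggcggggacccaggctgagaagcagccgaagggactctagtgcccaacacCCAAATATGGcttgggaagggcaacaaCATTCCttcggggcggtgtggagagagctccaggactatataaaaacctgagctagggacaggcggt
Csrp2: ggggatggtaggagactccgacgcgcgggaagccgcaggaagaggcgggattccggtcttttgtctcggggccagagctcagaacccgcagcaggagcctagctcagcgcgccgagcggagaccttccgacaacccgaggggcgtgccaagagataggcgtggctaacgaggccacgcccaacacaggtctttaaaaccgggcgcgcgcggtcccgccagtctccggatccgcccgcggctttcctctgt

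In these windows the Nppa promoter held 1 GATA match, the Nppb promoter 3 GATA matches and 1 M-CAT on the reverse strand, and the Acta1 promoter 1 CArG box and 1 M-CAT, while no match fell in that of Csrp2. Of 27457 promoters, 1.5% held a CArG box, 11.8% an M-CAT, 23.2% a GATA match, 6.36% an AP-1 site and 13.7% the half-site. Among the 40 of 52 genes higher in both models whose promoter was in the table, 1 (2.5%) held a CArG box, 9 (22.5%) an M-CAT, 5 (12.5%) a GATA match, 3 (7.5%) an AP-1 site and 0 the half-site. Among the 6 of 11 genes lower in both, 2 (33.3%) held the half-site and 1 (16.7%) an M-CAT, while 0 held a CArG box, a GATA match or an AP-1 site. A match describes letters in the window, not a bound site.

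Of 19 measured genes in the fetal and natriuretic list, 6 rose after MI and 6 rose and 1 fell after AB, against 83 and 15 and against 166 and 105 of all 4736. The list's median effect was 0.13 after MI and 0.24 after AB, beside 0.00 and 0.02 over all genes. Quantile normalization lowered the list's medians to 0.05 and 0.09. The median difference was -0.06 (-0.01 after quantile normalization). By time, at 3 and 9 weeks and at 6, 12, 16 and 30 weeks, the list's median was 0.19 and 0.15 after MI and 0.42, 0.15, 0.38 and 0.16 after AB, so that the AB median was below that of 3-week MI at 12 and 30 weeks. Eno1, the enolase of the fetal heart, had an MI effect of 0.51 ± 0.104 and an AB effect of 0.12 ± 0.0822 (adjusted p = 0.00441 and 0.508). MI 3-week sham replicate 2 decided this gene: at 12.70 it was far from its partner, and the Eno1 difference of 0.39 (0.12 to 0.66) became 0.60 (adjusted p = 0.0184) without replicate 1 and 0.17 without replicate 2. The MI call was lost without replicate 2 (adjusted p = 0.19). Npr3, the receptor that clears natriuretic peptides, rose after AB (0.50 ± 0.0804, adjusted p = 0.000104) and stood at 0.26 ± 0.102 after MI (adjusted p = 0.27), a difference of -0.24 (-0.50 to 0.03). Myh6, the adult alpha-myosin heavy chain (chosen after its values were seen), had effects of -0.17 after MI and 0.24 after AB, neither of which passed. MI 3-week replicate 4 decided the MI value: it stood at 13.70 against 15.04 for the next array of its group, and without it the MI effect was 0.01 and the difference -0.24, in place of -0.41.

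Of 26 sarcomere and Z-disc genes 5 rose after MI and 7 after AB, beside 83 and 166 of all genes, and 0 fell in either (3 fell after AB under quantile normalization). Its medians were 0.11 and 0.19, which dropped to 0.00 and 0.02 under quantile normalization, and 6 of 26 differences were above 0 (median -0.08; -0.03 under quantile normalization). Acta1 and Csrp2, given above, were among the 4 members with the smallest p for the difference. The other two were Tcap, the titin cap of the Z-disc, at -0.45 (-0.80 to -0.10) with effects of -0.22 after MI and 0.23 after AB, and Pdlim3, a Z-disc protein that binds alpha-actinin, at 0.48 (0.10 to 0.86) with effects of 0.16 after MI and -0.32 after AB. Neither gene passed in either model. Ankrd1, a stretch-responsive ankyrin protein, and Csrp3, the muscle LIM protein, were chosen after their values were seen. Ankrd1 rose by 0.71 ± 0.082 after MI and 0.55 ± 0.0648 after AB (adjusted p = 1.22e-06 and 6.44e-07). Csrp3 rose by 0.64 ± 0.0819 after AB (adjusted p = 2.6e-06) and by 0.45 ± 0.104 after MI (adjusted p = 0.0123), the latter call being lost without MI 3-week sham replicate 1 or MI 9-week sham replicate 5 (adjusted p = 0.0826 to 0.163).

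**Figure D2:**
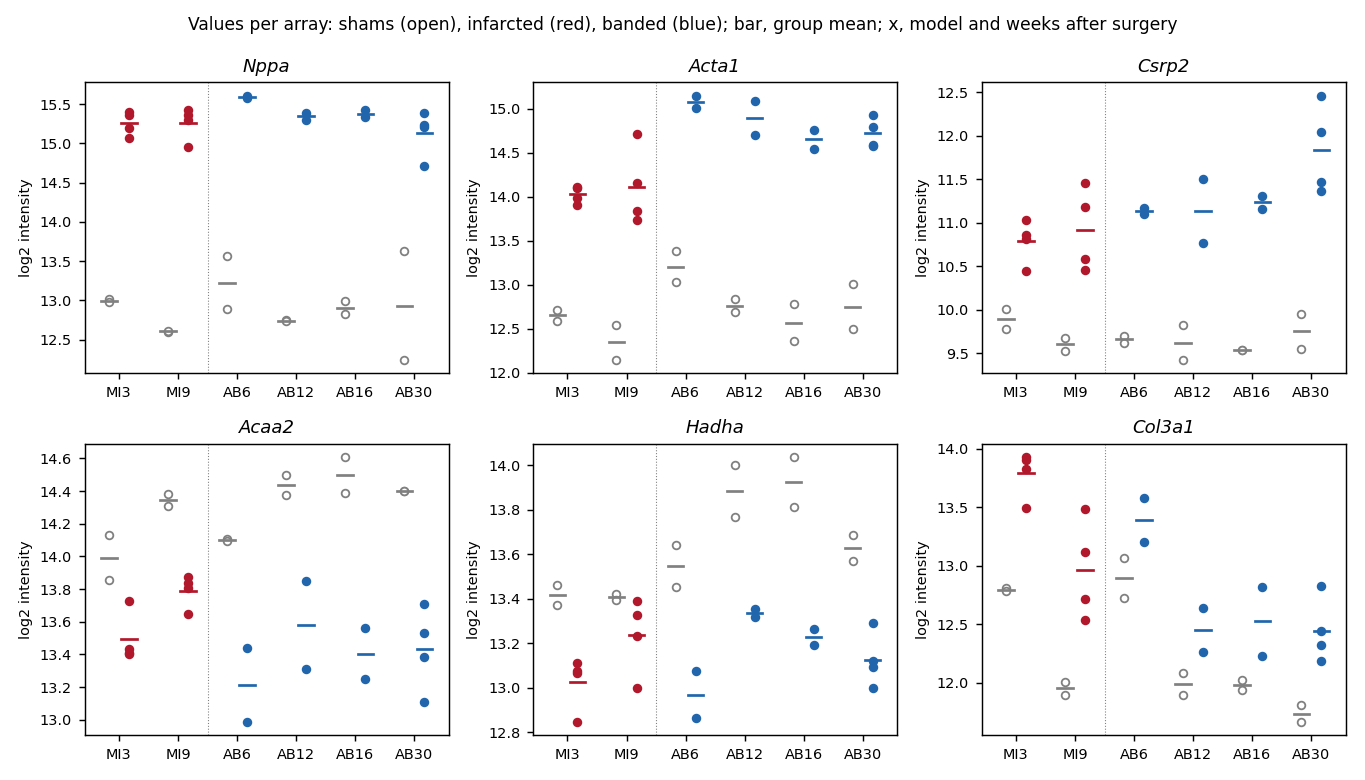
Values of 6 genes on each array (log2 intensity, vertical axis) by model and weeks after surgery (horizontal axis), with shams open, infarcted hearts red, banded hearts blue and bars at group means. Nppa, Acta1 and Csrp2 stand above all shams in every operated array, Acaa2 and Hadha lie below all shams of their model in every banded array, and Col3a1 shams are higher at 3 weeks of infarction and 6 weeks of banding than at the other times.

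Genes of fatty acid oxidation, the main fuel pathway of the adult heart, fell in both models where they passed. Of 34 measured genes 5 fell after MI and 15 after AB, and 0 rose in either, beside 15 and 105 lower genes of all 4736. The median effect was -0.17 after MI and -0.26 after AB. The difference was above 0 for 24 of 34 genes, with a median of 0.19 against -0.01 over all genes. It was 0.15 under quantile normalization and 0.14 without the 12-week AB arrays. For 6 genes the unadjusted p of the difference was below 0.05, all 6 higher after MI, and none passed adjustment. Between the shams the list's median MI minus AB was -0.06, with 1 gene called higher and 5 lower, beside 3.08% and 3.15% of all genes. The part of the shams in these differences was not tested.

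Acaa2, the mitochondrial thiolase that closes each turn of the pathway, fell in both. Its 8 infarcted arrays ranged from 13.41 to 13.88 (median 13.69) and their shams stood at 13.85 and 14.13 at 3 weeks and 14.38 and 14.31 at 9 weeks. Banded arrays ran from 12.99 to 13.85 (median 13.41) and their 8 shams from 14.09 to 14.61 (median 14.40). All operated arrays lay below the mean of their own shams. The fall was -0.53 ± 0.104 log2 (limma adjusted p = 0.00327) after MI and -0.95 ± 0.0824 log2 (limma adjusted p = 7.6e-10) after AB, with a difference of 0.43 (95% interval 0.16 to 0.70, adjusted p = 0.533). The MI call was lost without MI 3-week sham replicate 2 (adjusted p = 0.0717), where the effect was -0.46. Hadha, the alpha subunit of the trifunctional protein for long-chain fats, showed the same order. Its 8 infarcted arrays ranged from 12.85 to 13.39 (median 13.09) and their shams stood at 13.37 and 13.46 at 3 weeks and 13.42 and 13.39 at 9 weeks. Banded arrays ran from 12.86 to 13.35 (median 13.16) and their 8 shams from 13.45 to 14.04 (median 13.73). No banded array reached a sham of its model, and the infarcted range met the MI shams only at its top, 13.39 against 13.37. Hadha fell by 0.58 after AB (SE 0.0653, adjusted p = 2.54e-07), stood at -0.28 ± 0.0827 after MI (adjusted p = 0.0718, and 0.0471 without MI 9-week replicate 3), and had a difference of 0.30 (0.09 to 0.52). For Hadha MI minus AB was -0.33 between the shams (adjusted p = 0.0107) and -0.03 between the operated hearts (adjusted p = 0.802), and for Acaa2 it was -0.19 between the shams (adjusted p = 0.281) and 0.23 between the operated hearts (adjusted p = 0.0639).

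Acads, the short-chain acyl-CoA dehydrogenase, had effects of 0.08 ± 0.13 after MI (adjusted p = 0.903) and -0.46 ± 0.103 after AB (adjusted p = 0.00461), and a difference of 0.54 (95% interval 0.20 to 0.88, adjusted p = 0.533). Its levels were 10.78 to 11.77 (median 11.33) in infarcted arrays, 11.44 and 11.35 at 3 weeks and 10.97 and 11.21 at 9 weeks in MI shams, 11.42 to 12.19 (median 11.62) in banded arrays and 11.68 to 12.44 (median 12.09) in AB shams. By time the effects were -0.29 and 0.45 at 3 and 9 weeks of MI and -0.27, -0.52, -0.63 and -0.44 at 6, 12, 16 and 30 weeks of AB. The shams did not overlap here: those of MI lay below those of AB by 0.86 log2 (adjusted p = 0.00013), while MI minus AB was -0.32 between the operated hearts (adjusted p = 0.0433). Ech1, a peroxisomal and mitochondrial isomerase, had effects of -0.46 ± 0.117 after MI (adjusted p = 0.0264) and -0.84 ± 0.0926 after AB (adjusted p = 2.02e-07) and a difference of 0.38 (0.07 to 0.68), and its MI call was lost without MI 3-week sham replicates 1 or 2, MI 3-week replicate 5, MI 9-week sham replicates 5 or 6 or MI 9-week replicate 2 (adjusted p = 0.0541 to 0.131). Decr1, the reductase that handles polyunsaturated fats, was chosen after its values were seen. It fell by 0.69 after MI and by 0.95 after AB (adjusted p = 0.00268 and 2.02e-07) and kept both calls with any array left out. Its difference was 0.27 (-0.08 to 0.61).

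Fewer genes passed in the other lists of energy metabolism than in that of fatty acid oxidation. Of 33 genes of oxidative phosphorylation 1 fell after MI and 0 passed after AB, beside 0.317% and 2.22% lower over all genes. Below an unadjusted p of 0.05 were 4 and 8, beside 10.7% and 18.3% of all genes, and the medians were -0.02 and -0.05. Quantile normalization gave 3 and 9 lower genes, with medians of -0.13 and -0.12, and turned the sign of the median difference from 0.01 to -0.01. Ndufs1, the largest subunit of complex I, had a difference of 0.50 (0.04 to 0.96), with effects of 0.12 after MI and -0.38 after AB. Ndufv2, another complex I subunit, had a difference of 0.28 (0.00 to 0.57), Atp5f1d of the ATP synthase of 0.19 (-0.05 to 0.44) and Cox6c of cytochrome oxidase of -0.22 (-0.50 to 0.06). None of the 4 passed in either model. In the citrate cycle and pyruvate list of 18 genes, 1 fell after MI and 2 after AB, beside 0.317% and 2.22% lower over all genes. The medians were -0.11 and -0.11. Pdhb, of pyruvate dehydrogenase, had a difference of -0.27 (-0.59 to 0.06), Pdk4, the kinase that shuts that enzyme off, of 0.39 (-0.19 to 0.96), Suclg1, of succinyl-CoA ligase, of 0.20 (-0.11 to 0.51) and Cs, citrate synthase, of 0.20 (-0.15 to 0.54). Of these Suclg1 alone passed, falling by 0.44 after AB (adjusted p = 0.00271). Of 21 genes of glycolysis and glucose uptake, 2 rose and 1 fell after MI, and 1 rose and 3 fell after AB, beside 1.75% higher and 0.317% lower after MI and 3.51% higher and 2.22% lower after AB over all genes. Quantile normalization gave 0 higher and 2 lower after MI and 1 higher and 4 lower after AB. Eno3, the enolase of adult muscle, fell by 0.92 after AB (SE 0.154, adjusted p = 0.000185) and stood at -0.23 ± 0.195 after MI, a difference of 0.68 (95% interval 0.18 to 1.19, adjusted p = 0.56). Pgk1, phosphoglycerate kinase, had a difference of 0.25 (0.03 to 0.47) and Pfkfb1, which makes the activator of phosphofructokinase, of -0.17 (-0.38 to 0.04), and neither passed in a model.

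Genes of the extracellular matrix, the collagens and glycoproteins between the cells, passed in both models, nearly all of them upward. Of 36 measured genes 13 rose after MI and 11 rose and 1 fell after AB, beside 1.75% and 3.51% of all genes for the higher genes and 0.317% and 2.22% for the lower. After AB 9 rose under quantile normalization and 8 with array medians subtracted. The median effect was 0.30 after MI and 0.16 after AB. Of the differences 29 of 36 were above 0, with a median of 0.14 that was 0.13 under quantile normalization and 0.15 without the 12-week AB arrays, where 7 rose after AB. For 4 genes the unadjusted p of the difference was below 0.05, all higher after MI, and none passed adjustment. Col3a1, the fibrillar collagen III gene, was measured as follows: the 8 infarcted arrays ranged from 12.54 to 13.93 (median 13.49) and their shams stood at 12.81 and 12.79 at 3 weeks and 12.01 and 11.90 at 9 weeks. Banded arrays ran from 12.19 to 13.58 (median 12.54) and their 8 shams from 11.67 to 13.07 (median 11.99). Sham levels were higher at 3 weeks of MI and 6 weeks of AB than at the other times, and the pooled operated and sham ranges overlapped in both models. It rose by 1.00 ± 0.147 after MI and 0.55 ± 0.116 after AB (adjusted p = 7.95e-05 and 0.00282), and the difference was 0.45 (95% interval 0.07 to 0.83, adjusted p = 0.643). MI minus AB was 0.22 between the shams (adjusted p = 0.392) and 0.67 between the operated hearts (adjusted p = 0.00021).

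Col5a1, the collagen V chain that sets fibril width, was 1 of 4 genes (0.0845%) whose ratios did not overlap between the 8 infarcted and 10 banded arrays, a ratio being an array minus the mean of its own shams, which arrays of a group share. Its ratios ran from 0.24 to 0.70 after MI and from -0.35 to 0.22 after AB, and the difference was 0.38 (95% interval 0.15 to 0.62, adjusted p = 0.533). The MI effect was 0.35 ± 0.0889 (adjusted p = 0.0264), a call lost without MI 3-week sham replicates 1 or 2, MI 3-week replicate 5, MI 9-week sham replicate 5 or MI 9-week replicate 1 (adjusted p = 0.0509 to 0.269). Its MI shams, at 11.50 and 11.63 at 3 weeks and 11.33 and 11.59 at 9 weeks, did not overlap the AB shams at 11.64 to 12.10 (median 11.81), and the operated hearts were 0.04 apart (adjusted p = 0.783). Efemp1, a fibulin of elastic tissue, fell by 0.47 after AB (adjusted p = 0.0112) and stood at 0.02 ± 0.146 after MI, a difference of 0.49 (0.11 to 0.86). Lamb2, a laminin chain of the basement membrane, had a difference of 0.36 (0.04 to 0.68) and passed in neither model. Postn, the periostin secreted by activated fibroblasts, was chosen after its values were seen, as were Fn1 and Spp1. Its 8 infarcted arrays ranged from 7.82 to 11.11 (median 9.41) and their shams stood at 7.59 and 7.23 at 3 weeks and 6.81 and 6.94 at 9 weeks. Arrays of banded hearts ranged from 8.03 to 9.46 (median 8.70) and their 8 shams from 6.57 to 7.61 (median 6.84). It rose by 2.20 ± 0.34 after MI and 1.82 ± 0.269 after AB (adjusted p = 0.000178 and 2.47e-05), the difference being 0.37 (-0.51 to 1.26). Fn1, fibronectin, rose by 0.98 ± 0.194 after MI and 0.65 ± 0.154 after AB on its brightest probe set (adjusted p = 0.00327 and 0.00818). None of its 4 other probe sets passed in either model by limma, with effects of -0.03, 0.01, 0.06 and 0.20, adjusted p = 0.446 to 0.981 after MI and 0.00, 0.01, 0.17 and 0.22, adjusted p = 0.0995 to 0.989 after AB. Spp1, the matrix cytokine osteopontin, had effects of 1.78 ± 0.4 after MI (adjusted p = 0.011) and 1.33 ± 0.316 after AB (adjusted p = 0.00838). MI 9-week replicate 1 stood at 12.302 against 9.34 for the nearest array of its group, and the MI call was lost without MI 3-week sham replicate 2 or MI 9-week sham replicate 5 (adjusted p = 0.0887 to 0.0906).

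Markers of fibroblasts rose too, and several genes are in both lists. Of 11 measured markers 6 rose after MI and 6 after AB (4 under quantile normalization and 3 with array medians subtracted), beside 1.75% and 3.51% of all genes, with medians of 0.73 and 0.41 and a median difference of 0.32. That median was 0.27 under quantile normalization and 0.28 without the 12-week AB arrays, where 3 rose after AB. The summed fibroblast level (log2) ran from 15.76 to 16.68 after MI, from 15.64 to 15.89 in MI shams, from 15.19 to 15.88 after AB and from 14.95 to 15.45 in AB shams, so MI shams were already above the AB shams. Of 8 macrophage and monocyte markers 3 rose after MI and 1 after AB, beside the same 1.75% and 3.51% of all genes. Below an unadjusted p of 0.05 were 3 after MI and 4 after AB, beside 10.7% and 18.3% of all genes. The median effect of the 8 markers was 0.09 after MI and 0.13 after AB, and 6 and 5 of them were above 0. Their summed level ran from 13.97 to 15.55 after MI and from 13.75 to 13.86 in MI shams. It ran from 13.91 to 14.55 after AB and from 13.45 to 13.89 in AB shams. Lyz2, the lysozyme of macrophages (chosen after its values were seen), rose by 1.60 ± 0.303 after MI and 1.28 ± 0.239 after AB (adjusted p = 0.00211 and 0.000721). The part of these cells in the matrix result was not tested. Beside 1.75% and 3.51% of all genes, smooth muscle and pericyte markers rose for 2 of 7 in each model and atrial markers for 1 of 4 in each (Nppa). Lymphocyte markers rose for 0 of 12 after MI and 1 after AB, and Schwann and neuron markers for 1 of 10 after MI and 0 after AB. Endothelial (6), mast cell and granulocyte (12), erythrocyte (4), adipocyte (6) and skeletal muscle (9) markers had 0 calls in both. Their counts below an unadjusted p of 0.05 were 0, 0, 0, 0 and 1 after MI and 0, 2, 1, 0 and 0 after AB.

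Of 25 matrix proteases and inhibitors 6 rose after MI and 4 after AB, beside 1.75% and 3.51% of all genes, with medians of 0.16 and 0.09. Mmp2, a gelatinase, had a difference of 0.24 (0.06 to 0.43), with effects of 0.29 after MI and 0.04 after AB, and its MI call (adjusted p = 0.0231) was lost without MI 3-week sham replicates 1 or 2, MI 9-week sham replicates 5 or 6 or MI 9-week replicate 1 (adjusted p = 0.0554 to 0.121). Ctsb, the lysosomal protease cathepsin B, had effects of 0.57 ± 0.124 after MI (adjusted p = 0.00839) and 0.18 ± 0.0976 after AB (adjusted p = 0.367) and a difference of 0.39 (0.07 to 0.71). Its MI call was lost without MI 3-week sham replicate 2 or MI 9-week sham replicate 5 (adjusted p = 0.0669 to 0.0733). Mmp13, a collagenase, had a difference of -0.32 (-0.58 to -0.06) and Adam10, a membrane sheddase, of 0.27 (0.02 to 0.51), and neither passed in a model. In the list of TGF-beta and related factors, 3 of 37 genes rose in each model, beside the same 1.75% and 3.51% of all genes. Bmpr1a, a BMP receptor, rose by 0.61 ± 0.0938 after MI and 0.43 ± 0.0742 after AB (adjusted p = 0.000156 and 0.000275), a difference of 0.18 (-0.06 to 0.43). Tgfb3, Igfbp2 and Nrg1, a TGF-beta ligand, a binding protein of insulin-like growth factors and neuregulin, had differences of 0.18, -0.17 and -0.20, and passed in neither model.

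Cytoskeletal genes had the highest median effect of the 25 lists after MI, 0.35 against 0.16 after AB, with 7 of 25 rising after MI and 5 after AB, beside 1.75% and 3.51% of all genes. The median difference was 0.16, 0.11 under quantile normalization, where 3 rose after MI and 4 after AB. Vim, the intermediate filament vimentin of non-myocytes, was measured as follows: the 8 infarcted arrays ranged from 12.61 to 13.59 (median 13.06) and their shams stood at 12.28 and 12.42 at 3 weeks and 12.10 and 12.29 at 9 weeks. Banded arrays ran from 12.13 to 13.05 (median 12.68) and their 8 shams from 12.08 to 12.41 (median 12.25). The infarcted arrays lay above all MI shams, and banded arrays overlapped AB shams. Vim rose by 0.82 ± 0.132 after MI and 0.44 ± 0.105 after AB (adjusted p = 0.000351 and 0.00871), a difference of 0.38 (0.04 to 0.72). Actg1, cytoplasmic gamma-actin, had effects of 0.40 ± 0.1 after MI (adjusted p = 0.0252) and -0.04 ± 0.0792 after AB (adjusted p = 0.858) and a difference of 0.44 (95% interval 0.18 to 0.71, adjusted p = 0.503). Its MI call was lost without MI 3-week sham replicate 2, MI 3-week replicates 3 or 4, MI 9-week sham replicates 5 or 6 or MI 9-week replicate 1 (adjusted p = 0.0528 to 0.26). Msn, moesin, which ties actin to the membrane, had a difference of 0.31 (0.01 to 0.61), and Actn4, non-muscle alpha-actinin, of -0.24 (-0.45 to -0.04), and neither passed in a model.

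**Figure D3:**
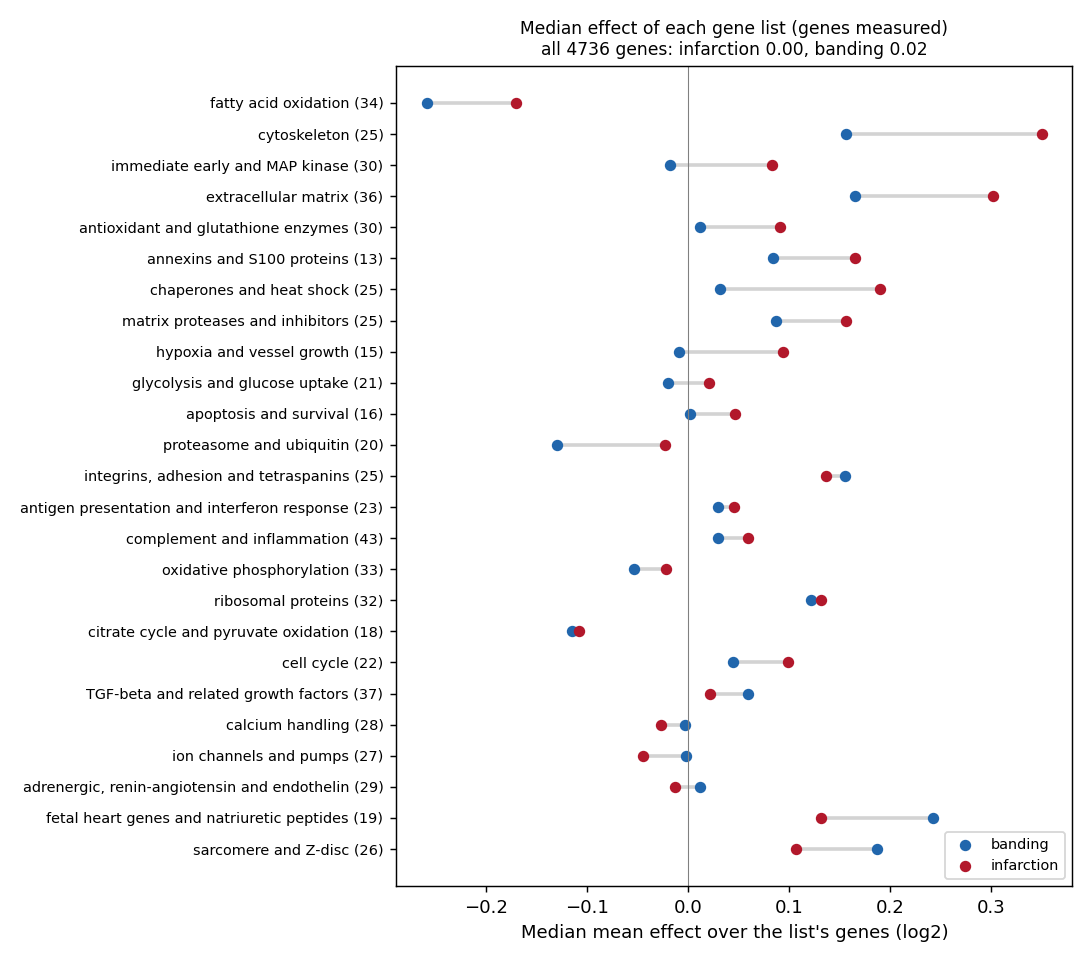
Median mean effect (log2, horizontal axis) over the measured genes of each of 25 gene lists (vertical axis, number of genes in brackets), after infarction (red) and after banding (blue), ordered by the median of the gene-wise differences. Fatty acid oxidation is lowest in both and lower after banding, cytoskeleton and extracellular matrix are highest after infarction, and the sarcomere and fetal lists are higher after banding.

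Since no gene passed for the difference, the 8 with the smallest p in each direction are given as values. A difference of effects is the difference between operated hearts minus that between shams, and both terms are given. The genes were picked by this difference on the same arrays, so a large term follows from the choice. The adjusted p-values of the terms are therefore no separate support. For Tfpi, the inhibitor of tissue factor that endothelium makes, infarcted arrays ranged from 9.31 to 9.57 (median 9.42), their shams stood at 9.22 and 9.26 at 3 weeks and 8.89 and 9.14 at 9 weeks, banded arrays ranged from 8.81 to 9.63 (median 9.09) and AB shams from 9.04 to 9.45 (median 9.20). Infarcted arrays lay above all MI shams, and banded arrays overlapped AB shams. Its effects were 0.31 after MI and -0.12 after AB and its difference 0.44 (95% interval 0.23 to 0.64, adjusted p = 0.178). MI minus AB was -0.09 between the shams (adjusted p = 0.538) and 0.35 between the operated hearts (adjusted p = 0.00025). By time the effects were 0.24 and 0.38 at 3 and 9 weeks of MI and -0.34, -0.41, -0.02 and 0.27 at 6, 12, 16 and 30 weeks of AB, so that AB at 30 weeks lay between the MI values. The MI effect passed (adjusted p = 0.0233) and was lost without MI 3-week sham replicates 1 or 2, MI 3-week replicate 5 or MI 9-week sham replicate 5 (adjusted p = 0.0507 to 0.269). Nudt4, a hydrolase of inositol pyrophosphates, ranged from 11.71 to 12.25 (median 11.86) in infarcted arrays, stood at 12.22 and 12.21 at 3 weeks and 11.91 and 11.91 at 9 weeks in MI shams, and ranged from 10.996 to 11.89 (median 11.43) in banded arrays and 11.89 to 12.43 (median 12.08) in AB shams. The highest banded array stood level with the lowest AB sham. It fell by 0.75 after AB (adjusted p = 8.11e-07) and stood at -0.17 ± 0.114 after MI (adjusted p = 0.668). The difference was 0.59 (95% interval 0.29 to 0.88, adjusted p = 0.27), with -0.05 between the shams (adjusted p = 0.819) and 0.53 between the operated hearts (adjusted p = 0.000174). By time the effects were -0.38 and 0.04 at 3 and 9 weeks of MI and -0.94, -0.73, -1.02 and -0.32 at 6, 12, 16 and 30 weeks of AB, and 3-week MI was lower than 30-week AB. Cbr1, a carbonyl reductase, had ratios that did not overlap, from -0.08 to 0.41 after MI and from -0.66 to -0.15 after AB. It fell by 0.35 after AB (adjusted p = 0.00271), stood at 0.10 ± 0.0934 after MI, and had a difference of 0.45 (95% interval 0.21 to 0.70, adjusted p = 0.341), an adjusted p that the methods' analysis of variance put at 0.0299. MI minus AB was -0.28 between the shams (adjusted p = 0.0604) and 0.17 between the operated hearts (adjusted p = 0.153).

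For 3 of the 8 genes with a higher MI response the shams were called apart and the operated hearts were not. Nxf1, the mRNA export factor, had a difference of 0.64 (95% interval 0.34 to 0.95, adjusted p = 0.209), with -0.64 between the shams (adjusted p = 0.000847) and 0.00 between the operated hearts (adjusted p = 0.985). MI 3-week sham replicate 2 stood at 9.57, and the difference was 0.86 (adjusted p = 0.00278) without MI 3-week sham replicate 1 and 0.42 without replicate 2. Ddx39b, an RNA helicase of splicing and export, had a difference of 0.46 (0.20 to 0.73), with -0.48 between the shams (adjusted p = 0.00373) and -0.02 between the operated hearts (adjusted p = 0.916). Apeh, a peptidase of acylated peptides, had a difference of 0.32 (0.14 to 0.49), with -0.37 between the shams (adjusted p = 0.000704) and -0.05 between the operated hearts (adjusted p = 0.609). The shams of these 3 genes did not overlap between the models. Calr, the calcium-binding chaperone calreticulin, had a difference of 0.39 (0.16 to 0.61), with -0.25 between the shams (adjusted p = 0.0741) and 0.14 between the operated hearts (adjusted p = 0.224), and Actg1, given above, had -0.20 between the shams (adjusted p = 0.227) and 0.24 between the operated hearts (adjusted p = 0.0472).

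In the other direction Tnfsf13, the cytokine APRIL that supports B cells, had a difference of -0.90 (95% interval -1.47 to -0.34, adjusted p = 0.533). Its infarcted arrays ranged from 11.74 to 13.005 (median 12.32), MI shams stood at 12.84 and 12.88 at 3 weeks and 12.65 and 12.82 at 9 weeks, and banded arrays ranged from 11.52 to 12.18 (median 11.76) and AB shams from 9.05 to 12.08 (median 11.67). Every MI sham was above every AB sham. Between shams the step was 1.44 (adjusted p = 0.000118) and between operated hearts 0.54 (adjusted p = 0.0391). AB 16-week sham replicate 4, at 9.05, decided its size: the difference was -1.20 (adjusted p = 0.000198) without AB 16-week sham replicate 3 and -0.61 without replicate 4. Its effects by time were -0.14 and -0.77 at 3 and 9 weeks of MI and 0.17, 0.12, 1.74 and -0.24 at 6, 12, 16 and 30 weeks of AB. Ttc8, a part of the complex that builds cilia, had a difference of -0.60 (-0.97 to -0.22), with 0.63 between the shams (adjusted p = 0.00618) and 0.03 between the operated hearts (adjusted p = 0.905), and Apoa1, the main protein of high-density lipoprotein, of -0.52 (-0.85 to -0.19), with effects of -0.24 after MI and 0.29 after AB that did not pass. MI minus AB for Apoa1 was 0.32 between the shams (adjusted p = 0.133) and -0.21 between the operated hearts (adjusted p = 0.204). Gnao1, the G-protein alpha subunit Go, rose by 0.68 ± 0.0956 after AB (adjusted p = 1.31e-05) and stood at 0.18 ± 0.121 after MI, a difference of -0.50 (-0.81 to -0.19). Abat, which breaks down GABA, rose by 0.43 ± 0.098 after AB (adjusted p = 0.00625) and stood at -0.08 ± 0.124 after MI, a difference of -0.51 (-0.83 to -0.18). MI minus AB for Gnao1 was 0.20 between the shams (adjusted p = 0.345) and -0.30 between the operated hearts (adjusted p = 0.0382), and for Abat 0.29 between the shams (adjusted p = 0.155) and -0.21 between the operated hearts (adjusted p = 0.176). Rpp21, a ribonuclease P subunit, and Aifm2, a ubiquinone reductase that guards lipids from oxidation, had differences of -0.46 (-0.75 to -0.16) and -0.43 (-0.69 to -0.16). Their AB effects of 0.35 and 0.32 passed (adjusted p = 0.0163 and 0.0145). The Rpp21 call was lost without AB 6-week sham replicate 4, AB 12-week sham replicate 3 or AB 30-week sham replicate 6 (adjusted p = 0.0505 to 0.0706), and the Aifm2 call without AB 6-week sham replicate 4, AB 12-week sham replicate 3, AB 12-week replicate 1, AB 16-week sham replicate 4 or AB 16-week replicate 2 (adjusted p = 0.0515 to 0.0874). MI minus AB for Rpp21 was 0.19 between the shams (adjusted p = 0.348) and -0.27 between the operated hearts (adjusted p = 0.0522), and for Aifm2 0.13 between the shams (adjusted p = 0.5) and -0.30 between the operated hearts (adjusted p = 0.0152). Ceacam11, a cell adhesion molecule of the carcinoembryonic antigen family, had a difference of -0.35 (-0.58 to -0.13), and its MI effect of -0.35 (adjusted p = 0.0221) was lost without MI 3-week sham replicate 1 or MI 9-week sham replicates 5 or 6 (adjusted p = 0.0505 to 0.257). MI minus AB for Ceacam11 was 0.28 between the shams (adjusted p = 0.0415) and -0.07 between the operated hearts (adjusted p = 0.551). Of the 16 genes, effects had both signs over the AB times for Tfpi, Nxf1, Ddx39b, Apeh, Calr, Actg1, Tnfsf13, Ttc8 and Ceacam11, and over the MI times for Nudt4, Cbr1, Abat and Rpp21. Besides Cbr1 and Col5a1, the genes whose ratios did not overlap were Rpa3, a subunit of the protein that coats single-stranded DNA, at a difference of 0.58 and Epha7, an ephrin receptor, at -0.38, both chosen after their values were seen.

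**Figure D4:**
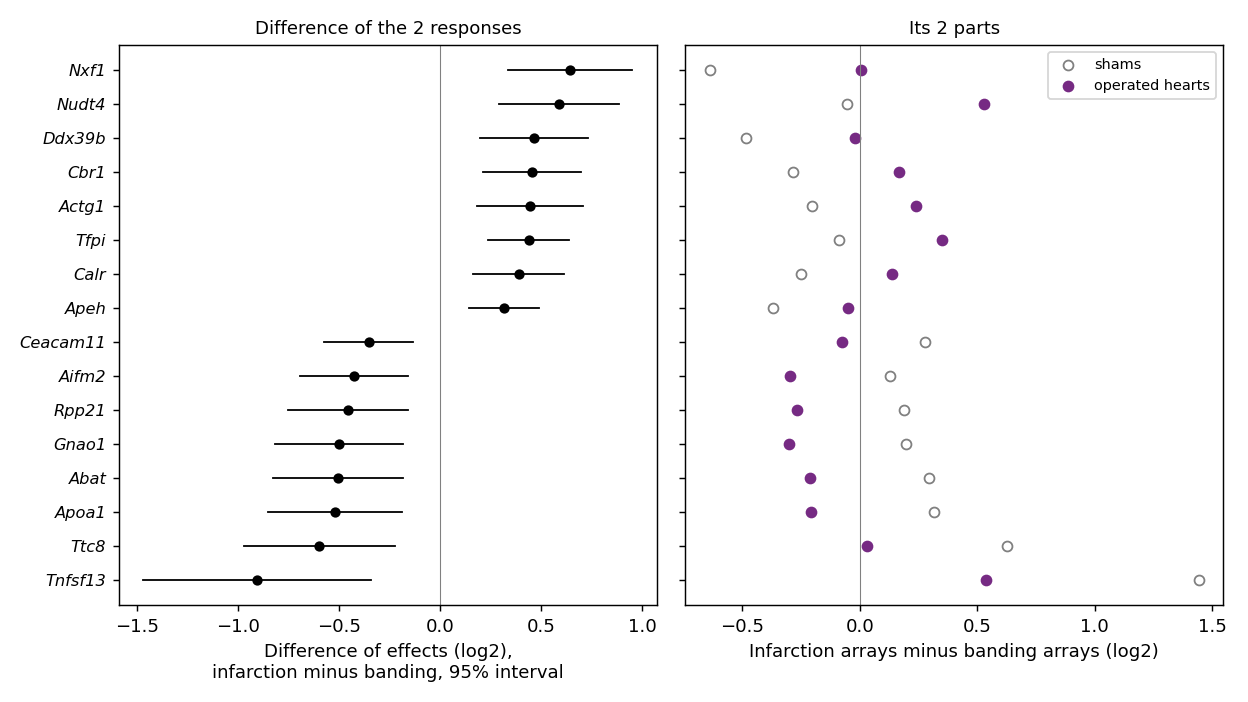
Left, difference of effects (log2, MI minus AB) with its 95% interval for the 8 genes with the smallest p in each direction. Right, the same genes' MI minus AB value in shams (open) and in operated hearts (filled), in log2, which shows Nxf1, Ddx39b, Apeh and Ttc8 near 0 in operated hearts and away from 0 in shams.

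The shams themselves differed. Between MI shams and AB shams 595 probe sets (6.81%) were called, 297 higher (3.40%) and 298 lower (3.41%), and by gene 295 (6.23%), 146 higher (3.08%) and 149 lower (3.15%), and the probe sets split into 232 higher and 434 lower after subtraction of array medians. The count was 240 without MI 3-week sham replicate 2, 307 without MI 9-week sham replicate 5, 313 without MI 3-week sham replicate 1, 334 without MI 9-week sham replicate 6 and 379 without AB 16-week sham replicate 4. Between infarcted and banded hearts 924 (10.6%) were called. The calls shared 322 probe sets, of which 321 had the same sign. Of the 617 probe sets with an unadjusted p below 0.05 for the difference, 146 were called between the shams and 140 between the operated hearts. Both terms make up the difference, so probe sets picked by it hold more such calls by construction. These 2 counts are therefore no separate support. The shams differed between models in operation and in weeks after surgery, which cannot be told apart. The age of the animals and the runs of the arrays are not given in the sources used here. A difference in either cannot be told apart from the model. Sham arrays did not overlap between models for 270 genes (5.70%) and operated arrays for 13 (0.274%). These shares cannot be set against each other: they rest on 4 and 8 shams but on 8 and 10 operated arrays, and fewer arrays separate more easily.

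Mapk7, the kinase ERK5 of a pathway that load activates, was read by 2 probe sets that disagreed. On the brighter one the effects were 0.01 after MI and -0.07 after AB, neither of which passed, and the difference was 0.08 (-0.12 to 0.28). On the dimmer one the ratios did not overlap, running from 0.14 to 0.36 after MI and from -0.27 to 0.07 after AB. Its effects were 0.25 after MI (adjusted p = 0.165) and -0.06 after AB (adjusted p = 0.764), and the difference was 0.31 (adjusted p = 0.546). MI minus AB was -0.26 between shams and 0.05 between operated hearts. Over the 30 measured immediate early and MAP kinase genes, 0 were called after MI by limma, beside 2.07% of all genes. Below an unadjusted p of 0.05 were 6, beside 10.7% of all genes. After AB 2 of them fell, beside 2.22% of all genes. Of the differences 22 of 30 were above 0, with a median of 0.15 (0.14 under quantile normalization). Between the shams the list's median MI minus AB was -0.10, with 0 genes called higher and 4 lower, beside 3.08% and 3.15% of all genes. Map2k5, the kinase that activates ERK5, had a difference of 0.19 (0.01 to 0.37), Map2k1, its counterpart for ERK1 and ERK2, of 0.38 (0.11 to 0.66), and Klf4, a transcription factor, of 0.41 (0.03 to 0.79), and none passed in a model. Dusp1, the phosphatase that switches MAP kinases off, had effects of 0.02 ± 0.135 after MI (adjusted p = 0.981) and -0.43 ± 0.107 after AB (adjusted p = 0.0126) and a difference of 0.44 (0.09 to 0.79), the AB call being lost without AB 6-week replicate 1, AB 16-week sham replicate 4 or AB 30-week sham replicate 6 (adjusted p = 0.0504 to 0.0522).

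Among protein-folding genes, 2 of 25 chaperones rose after MI and 5 after AB, beside 1.75% and 3.51% of all genes. The median of the list was 0.19 after MI and 0.03 after AB (0.13 and -0.00146 under quantile normalization, which turned the sign for AB). Between the shams the list's median MI minus AB was -0.20, with 0 genes called higher and 6 lower, beside 3.08% and 3.15% of all genes. Clu, the secreted chaperone clusterin, rose by 0.68 ± 0.0957 after MI and 0.35 ± 0.0757 after AB (adjusted p = 3.94e-05 and 0.00324), a difference of 0.33 (0.08 to 0.58). St13, a cochaperone of Hsp70, and Pdia3, a disulfide isomerase of the endoplasmic reticulum, had differences of 0.31 (0.01 to 0.61) and 0.42 (-0.02 to 0.85) and passed in neither model. Of 30 antioxidant and glutathione enzymes 2 rose after MI, and 1 rose and 1 fell after AB. Over all genes 1.75% rose after MI, and 3.51% rose and 2.22% fell after AB. For these enzymes 22 differences were above 0, with a median difference of 0.11. Gpx3, the secreted glutathione peroxidase, was higher in both: infarcted arrays ranged from 13.75 to 14.47 (median 13.97), MI shams stood at 13.39 and 13.18 at 3 weeks and 12.74 and 13.04 at 9 weeks, banded arrays ranged from 13.31 to 14.29 (median 13.70) and AB shams from 12.92 to 13.38 (median 13.09). Infarcted arrays did not overlap MI shams, while banded arrays overlapped AB shams. It rose by 0.93 ± 0.118 after MI and 0.60 ± 0.0932 after AB (adjusted p = 6.72e-06 and 5.37e-05), a difference of 0.33 (0.02 to 0.64). Sod3, the extracellular superoxide dismutase, had effects of 0.56 ± 0.128 after MI (adjusted p = 0.0128) and 0.19 ± 0.101 after AB (adjusted p = 0.351) and a difference of 0.37 (0.04 to 0.70). Its MI call was lost without MI 3-week sham replicate 2 or MI 9-week sham replicates 5 or 6 (adjusted p = 0.0557 to 0.12). Gstm2, a glutathione transferase, had an AB effect of -0.28 (adjusted p = 0.00871) and an MI effect of 0.07, a difference of 0.36 (0.13 to 0.58), and its relative Gstm1 had a difference of 0.22 (0.01 to 0.44). On a dimmer probe set of Gstm1 the difference was 0.70 (0.34 to 1.07, adjusted p = 0.299). Its MI minus AB was -0.59 between the shams (adjusted p = 0.0086) and 0.12 between the operated hearts (adjusted p = 0.577).

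The calls among genes of excitation were too few to set apart from the shares over all genes. By limma 0 of 28 calcium handling genes and 0 of 27 ion channels and pumps were called after MI, beside 2.07% of all genes. Below an unadjusted p of 0.05 were 3 and 1, beside 10.7% of all genes. After AB 1 calcium gene fell, and 1 channel gene rose and 1 fell, beside 3.51% higher and 2.22% lower over all genes. Casq2, the calcium store protein of the sarcoplasmic reticulum, had a difference of 0.50 (0.15 to 0.85), Cacnb2, a subunit of the L-type calcium channel, of -0.34 (-0.65 to -0.04) and Jph2, which holds the release units together, of -0.26 (-0.60 to 0.08), and none passed in a model. Kcne1, a subunit of the slow potassium current, rose by 0.63 ± 0.13 after AB (adjusted p = 0.0022) and stood at 0.28 ± 0.164 after MI, a difference of -0.35 (-0.77 to 0.08). Slc4a3, an anion exchanger, had an AB effect of -0.32 (adjusted p = 0.00108) and a difference of 0.22 (0.02 to 0.42). The chloride transporter Clcn3 and the potassium channel Kcnj5 had differences of -0.20 and 0.12 and passed in neither. Of 29 genes of adrenergic, renin-angiotensin and endothelin signaling 2 rose after MI, and 4 rose and 1 fell after AB. Over all genes 1.75% rose after MI, and 3.51% rose and 2.22% fell after AB. Grk5, the kinase that desensitizes adrenergic receptors, rose by 0.42 ± 0.0974 after AB (adjusted p = 0.00735) and stood at 0.21 ± 0.123 after MI, a difference of -0.20 (-0.52 to 0.12). Adcy6, the main adenylyl cyclase of myocytes, had effects of -0.03 after MI and -0.33 after AB and a difference of 0.29 (0.02 to 0.57), its AB call (adjusted p = 0.0152) being lost without AB 6-week sham replicate 3, AB 6-week replicate 1 or AB 16-week replicate 1 (adjusted p = 0.0585 to 0.091). Ece1, which makes active endothelin, and Agtr1b, an angiotensin receptor, had differences of 0.20 and -0.11 and passed in neither.

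In the list of complement and inflammation 3 of 43 genes rose after MI and 2 after AB, beside 1.75% and 3.51% of all genes. C1s, a protease of the first complement component, rose by 0.80 ± 0.151 after MI and 0.52 ± 0.12 after AB (adjusted p = 0.00212 and 0.00669), a difference of 0.28 (-0.11 to 0.68). C1qb, a chain of the recognition protein C1q made by macrophages, had effects of 0.81 ± 0.197 after MI (adjusted p = 0.0196) and 0.36 ± 0.156 after AB (adjusted p = 0.207) and a difference of 0.45 (-0.06 to 0.97). Its MI call was lost without MI 3-week sham replicates 1 or 2 or MI 9-week sham replicate 5 (adjusted p = 0.0527 to 0.145). The adhesion molecule Icam1 and the cytokine Il10 had differences of 0.23 and -0.18 and passed in neither. For antigen presentation and interferon genes, 0 of 23 passed after MI by limma (4 unadjusted), beside 2.07% of all genes (10.7% unadjusted). After AB 1 of them fell, beside 2.22% of all genes. Tap1, the peptide transporter of antigen presentation, had a difference of 0.28 (0.01 to 0.54), which passed by the methods' analysis of variance (adjusted p = 0.0377) and not by limma (adjusted p = 0.677). RT1-DMa and RT1-Da, of class II presentation, had differences of -0.18 and 0.31 and the transcription factor Stat3 of -0.20, with no call in a model. Of 22 cell cycle genes 0 passed after MI by limma (4 unadjusted), beside the same 2.07% of all genes. After AB 3 of them rose, beside 3.51% of all genes. Ccnd2, cyclin D2, rose by 0.85 ± 0.0951 after AB (adjusted p = 2.54e-07) and stood at 0.37 ± 0.12 after MI (adjusted p = 0.132), a difference of -0.48 (95% interval -0.79 to -0.17, adjusted p = 0.533). The MI effect passed without MI 3-week sham replicate 2 or MI 9-week replicate 4 (adjusted p = 0.0352 to 0.0464). On its other, dimmer probe set Ccnd2 passed in both models, at 0.72 after MI and 1.04 after AB (adjusted p = 0.0123 and 1.97e-06), with a difference of -0.32. Gadd45a, a stress gene that slows division, rose by 0.66 ± 0.0962 after AB (adjusted p = 1.99e-05) and stood at 0.33 ± 0.122 after MI (adjusted p = 0.208), a difference of -0.33 (-0.64 to -0.01). Plk1, a mitotic kinase, and Cdk4, the partner of D cyclins, had differences of -0.24 (-0.41 to -0.06) and 0.20 (-0.03 to 0.44) and passed in neither.

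Of 13 annexins and S100 proteins 4 rose after MI, and 3 rose and 1 fell after AB. Over all genes 1.75% rose after MI, and 3.51% rose and 2.22% fell after AB. Anxa2, a membrane-binding annexin, rose by 0.78 ± 0.134 after MI and 0.58 ± 0.106 after AB (adjusted p = 0.000675 and 0.000497), a difference of 0.19 (-0.15 to 0.54). Anxa1, which restrains inflammation, had effects of 0.61 ± 0.14 after MI (adjusted p = 0.0118) and 0.19 ± 0.11 after AB (adjusted p = 0.417) and a difference of 0.43 (0.07 to 0.79). Its MI call was lost without MI 3-week sham replicates 1 or 2 or MI 9-week sham replicate 5 (adjusted p = 0.0511 to 0.0753). On its other, dimmer probe set Anxa1 passed in both models, at 0.82 after MI and 0.48 after AB (adjusted p = 0.00268 and 0.0159), with a difference of 0.33. S100a1, the calcium sensor of myocytes, had an AB effect of -0.27 (adjusted p = 0.0348) and a difference of 0.18, and the difference of the granulocyte protein S100a8 was -0.18. The S100a1 call was lost without AB 6-week sham replicate 4, AB 6-week replicate 1, AB 12-week sham replicate 4, AB 12-week replicates 1 or 2, AB 16-week sham replicate 4, AB 16-week replicates 1 or 2 or AB 30-week sham replicates 5 or 6 (adjusted p = 0.0502 to 0.114). Of 25 integrin, adhesion and tetraspanin genes 0 passed after MI by limma (6 unadjusted), beside 2.07% of all genes (10.7% unadjusted). After AB 5 rose and 1 fell, beside 3.51% and 2.22% of all genes. Cav1, the caveolin of surface pits, had effects of 0.06 ± 0.102 after MI (adjusted p = 0.901) and -0.32 ± 0.0805 after AB (adjusted p = 0.0126) and a difference of 0.38 (95% interval 0.12 to 0.65, adjusted p = 0.533), the AB call being lost without AB 16-week replicate 2 (adjusted p = 0.0603). Itgb7, an integrin of lymphocytes, had a difference of -0.29 (-0.51 to -0.07), Ncam1, the neural adhesion molecule, of -0.22 (-0.40 to -0.05), and Pecam1, the adhesion molecule of endothelium, of 0.34 (0.02 to 0.67). The hypoxia and vessel growth list had 0 of 15 calls after MI by limma (1 unadjusted), beside the same 2.07% of all genes. It had 1 gene higher after AB, beside 3.51% of all genes. Hif1a, the oxygen-regulated transcription factor, had a difference of 0.35 (0.06 to 0.64), and Egln3, which marks it for decay, and P4ha1, a collagen hydroxylase, ones of -0.19 and 0.25. Of 16 apoptosis genes 0 passed after MI by limma (0 unadjusted), beside 2.07% of all genes. After AB 1 of them rose, beside 3.51% of all genes. Bak1, a pore-forming death protein, had a difference of -0.29 (-0.54 to -0.04), and Casp1, Casp2 and Bcl2, caspases and a survival protein, of 0.16, 0.20 and 0.18. Ribosomal protein genes rose for 1 of 32 after MI and 3 after AB, beside 1.75% and 3.51% of all genes. The AB count was 2 under quantile normalization and 0 by limma with array medians subtracted (10 below an unadjusted p of 0.05). Rpl3 had a difference of 0.29, Rpl17 of -0.32, Rpl30 of -0.33 and Rpl41 of 0.15. In the proteasome and ubiquitin list 0 of 20 passed after MI by limma (1 unadjusted), beside 2.07% of all genes. After AB 2 of them fell, beside 2.22% of all genes. Psmb2, Psmb4 and Psma7, subunits of the proteasome core, had differences of 0.36, 0.22 and 0.22, and Uchl1, a deubiquitinase of neurons, of -0.22. Egln3 rose by 0.29 ± 0.0682 after AB (adjusted p = 0.00669). Rpl3 rose by 0.79 ± 0.182 after MI and 0.50 ± 0.144 after AB (adjusted p = 0.0128 and 0.033). Its MI call was lost without MI 3-week sham replicates 1 or 2 or MI 9-week sham replicates 5 or 6 (adjusted p = 0.054 to 0.0797), and its AB call without AB 6-week sham replicate 3, AB 6-week replicate 1, AB 12-week replicate 2, AB 16-week sham replicates 3 or 4, AB 16-week replicates 1 or 2 or AB 30-week sham replicate 5 (adjusted p = 0.0553 to 0.0966).

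The probe sets with the smallest p for the difference were not always a gene's brightest, and a pair of genes so found was chosen after the values were seen. Akip1, a protein that binds kinase A, was read by 4 probe sets. On 1 of them infarcted arrays ranged from 10.73 to 12.13 (median 10.99), MI shams from 9.84 to 10.05 (median 9.92), banded arrays from 11.78 to 12.81 (median 12.32) and AB shams from 9.53 to 10.47 (median 10.13). No operated array overlapped a sham of its model, and infarcted arrays lay mostly below banded ones. The effects were 1.20 ± 0.171 after MI and 2.15 ± 0.135 after AB (adjusted p = 4.76e-05 and 2.79e-13), and the difference was -0.95 (-1.40 to -0.51, adjusted p = 0.178). A second, dimmer probe set gave 1.06, 2.30 and a difference of -1.24, whereas the other two stood at differences of -0.29 and -0.02, with no called effect. Scn7a, the sodium-sensing channel Nax, disagreed as well. On its dimmer probe set infarcted arrays ranged from 8.47 to 9.15 (median 8.84), MI shams from 8.67 to 9.03 (median 8.91), banded arrays from 7.42 to 8.35 (median 8.00) and AB shams from 8.68 to 9.18 (median 8.90). The banded arrays lay below all others. The effects were -0.04 after MI (adjusted p = 0.962) and -0.97 after AB (adjusted p = 2.58e-06), with a difference of 0.93 (0.53 to 1.34, adjusted p = 0.178). The brighter probe set gave a difference of 0.17.

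Other genes named here had probe sets that disagreed in call. The AB call of the brightest probe set was not shared by the other one of Abat (0.29, adjusted p = 0.279), Aifm2 (0.02, adjusted p = 0.956), Rpp21 (0.15, adjusted p = 0.326) and Gstm2 (-0.29, adjusted p = 0.277). Nor was it shared by 2 other probe sets of Dusp1 (-0.26 and -0.24, adjusted p = 0.467 to 0.623), 3 of S100a1 (-0.18, -0.15 and -0.04, adjusted p = 0.148 to 0.852), 2 of 3 others of Gadd45a (0.16 and 0.48, adjusted p = 0.109 to 0.678) or 1 of 2 others of Hadha (-0.25, adjusted p = 0.274). The MI call was not shared by the other probe set of Mmp2 (-0.04, adjusted p = 0.931), Sod3 (0.19, adjusted p = 0.539), Decr1 (-0.63, adjusted p = 0.178) and Rpl3 (0.72, adjusted p = 0.0594). In the reverse case, where the brightest probe set was not called, a dimmer one passed after AB for Pfkfb1 (-0.33, adjusted p = 0.00725), Psmb4 (-0.38, adjusted p = 0.0421) and Uchl1 (0.28, adjusted p = 0.00818), and after MI for Tgfb3 (0.35, adjusted p = 0.0128). What is said of these genes elsewhere holds for the brightest probe set.

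Counts of other lists also moved with the scaling. Under quantile normalization the number that rose after AB went from 5 to 3 for integrin and adhesion genes, from 5 to 3 for chaperones, from 1 to 0 for apoptosis genes and from 1 to 0 for lymphocyte markers. The number that fell after AB went from 1 to 3 for antigen presentation, from 1 to 3 for antioxidant enzymes, from 2 to 3 for the citrate cycle and from 1 to 2 for adrenergic and related genes. Smooth muscle and pericyte markers rose for 1 in each model in place of 2.

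The time points were compared within each model because they differ between the models. Against their own shams 18 probe sets (0.206%) were called at 3 weeks and 168 (1.92%) at 9 weeks of MI, and 57 (0.652%), 31 (0.355%), 62 (0.709%) and 98 (1.12%) at 6, 12, 16 and 30 weeks of AB, with 4, 4, 2, 2, 2 and 4 operated arrays. No probe set was called for a difference between times by limma: 0 were called for 9 minus 3 weeks of MI (0%; 509 unadjusted, smallest adjusted p 0.0739) and 0 for any difference among the 4 AB times (0%; 623 unadjusted, smallest adjusted p 0.187). Effects at 3 weeks of MI correlated across probe sets at 0.372, 0.312, 0.400 and 0.443 with those at 6, 12, 16 and 30 weeks of AB, and effects at 9 weeks of MI at 0.265, 0.182, 0.105 and 0.488. By time, Nppb effects were 1.05 and 0.97 at 3 and 9 weeks of MI and 1.29, 1.41, 1.71 and 1.43 at 6, 12, 16 and 30 weeks of AB. The Csrp2 effects were 0.90 and 1.32 at 3 and 9 weeks of MI and 1.48, 1.51, 1.70 and 2.09 at 6, 12, 16 and 30 weeks of AB. Every AB effect of these 2 genes lay above every MI effect. Acaa2 stood at -0.50 and -0.55 at 3 and 9 weeks of MI and -0.89, -0.86, -1.10 and -0.97 at 6, 12, 16 and 30 weeks of AB, and Hadha at -0.39 and -0.17 at 3 and 9 weeks of MI and -0.58, -0.55, -0.70 and -0.50 at 6, 12, 16 and 30 weeks of AB. All 4 AB values of both genes lay below both MI values. Col3a1 stood at 0.99 and 1.01 at 3 and 9 weeks of MI and 0.49, 0.46, 0.54 and 0.71 at 6, 12, 16 and 30 weeks of AB, and Vim at 0.75 and 0.88 at 3 and 9 weeks of MI and 0.67, 0.17, 0.43 and 0.48 at 6, 12, 16 and 30 weeks of AB. For these the MI values lay above all AB values. All 6 genes were among the 4 of a list with the smallest p for the difference on the same arrays. Their separation by time therefore follows in part from the choice and is no separate support. The median fatty acid oxidation effect, in the same order of times, was -0.20 and -0.13 after MI and -0.24, -0.29, -0.34 and -0.24 after AB, and the median matrix effect 0.27 and 0.32 after MI and 0.27, 0.17, 0.28 and 0.24 after AB. The sarcomere median was 0.08 and 0.13 after MI and 0.52, 0.02, 0.39 and -0.03 after AB, with the AB median above both MI medians at 6 and 16 weeks and below both at 12 and 30 weeks. The fibroblast marker median was 0.85 and 0.59 after MI and 0.37, 0.30, 0.37 and 0.53 after AB. Since no week was common to both models, model and time after surgery cannot be told apart in any of these differences.

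**Figure D5:**
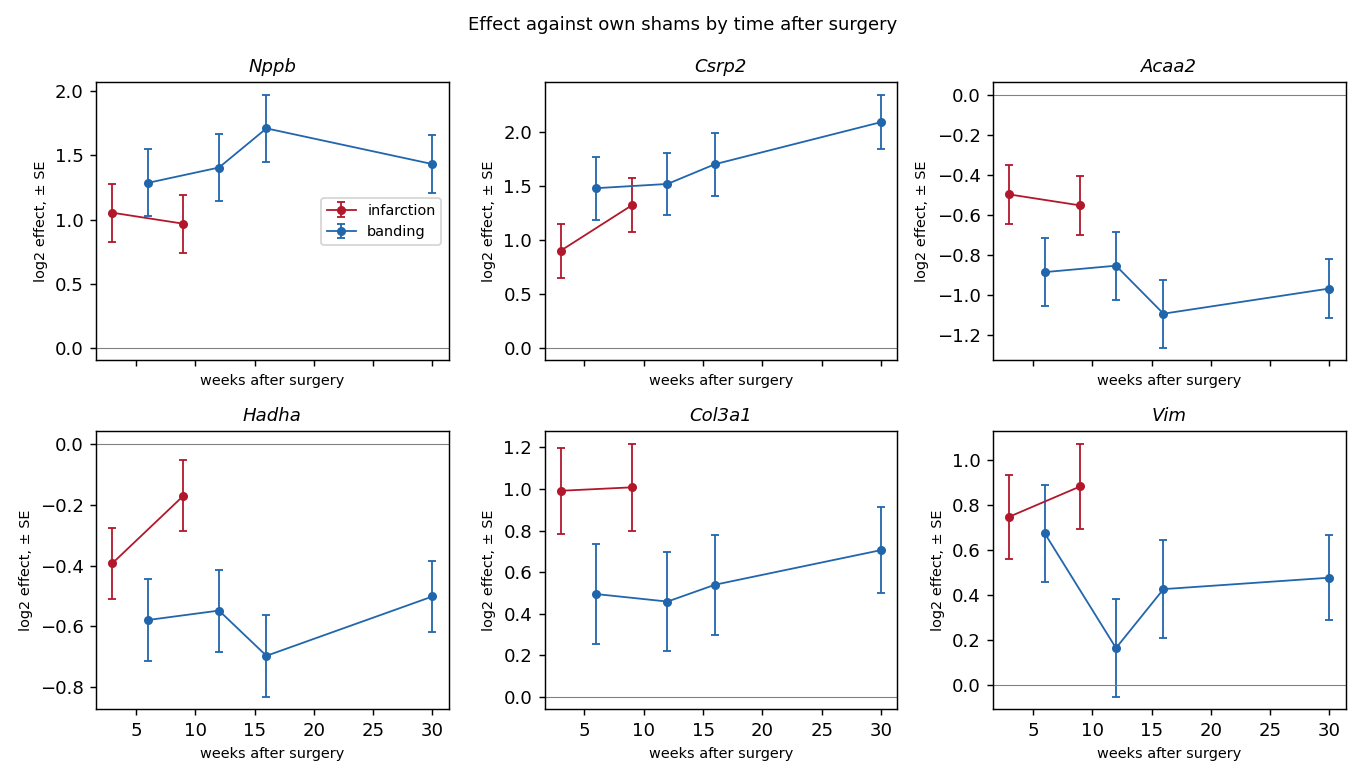
Effect against own shams (log2, with standard errors from the fit) by weeks after surgery for 6 genes, after infarction (red, 3 and 9 weeks) and after banding (blue, 6 to 30 weeks). Nppb and Csrp2 lie higher and Acaa2 and Hadha lower at all 4 banding times, and Col3a1 and Vim lie higher at both infarction times. The genes were picked by a small p for the difference on the same arrays, so this separation follows in part from the choice.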

How the data were processed

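RNA pools from rat left ventricle were measured on Affymetrix RGU34A arrays, 1 pool per array. The deposited values are intensities that the authors computed with dChip, as model-based expression from perfect match probes only, after scaling the arrays to each other by the invariant rank method of Li and Wong. The authors left out control probe sets, and 8740 remained. The dChip version is not given in the sources used here. Samples were grouped by their GEO labels, and no sample was left out of the fit.

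Values were raised to at least 16 and converted to log2, so changes of dim probe sets are understated. A mean was fitted to each of 20 groups over all 46 arrays with limma 3.58.1 in R 4.3.3 (26 residual degrees of freedom, 31.11 with the prior), so that groups of 2 arrays borrowed the spread of the others. Contrasts gave the effect in each model, their difference, and the step between shams. The study's methods set each array against the mean of its shams and used analysis of variance, which was run as an alternative. Adjusted p-values are Benjamini-Hochberg values from limma over all 8740 probe sets unless another test is named. Of these probe sets 7006 had 1 gene symbol, 308 several and 1426 none, by the GEO platform annotation, and 6985 symbols were traced through the gene ID to RefSeq (GRCr8). Promoter sequences came from the same RefSeq release.

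Named genes were the 8 with the smallest p for the difference in each direction, up to 4 in each of 25 lists, genes called with opposite signs in the models (0 found), and 5 that the study names between models. Genes outside this rule are given as chosen after their values were seen. The members, the 25 gene lists and the 12 marker lists were chosen with earlier results of these data known. Alternatives were the scaling, the floor, a filter on dim probe sets, the arrays in the fit, a replicate block, array weights, the variance model, the time points, and leaving out each of 30 arrays. Arrays give no read depth, and the number of arrays limits the precision. Nothing in the sources ties pools of different arrays to the same animals.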

Additional observations from a re-analysis of the deposited data

Results flagged for a closer look

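Within the groups of 4 arrays, single arrays stood far from the other 3 for 12 of 363 pairs of gene and group (3.31%), over 121 genes named in the text. An array was taken as far when the share of the group's range taken by its gap to the nearest value exceeded Dixon's 95% critical value, which chance alone passes in about 1 of 20 groups. All values are log2 intensities.

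Among infarcted hearts at 3 weeks, replicate 4 was highest for Acaa2 (13.729, next 13.432) and lowest for Myh6, the alpha-myosin heavy chain (13.695, next 15.044). Replicate 5 was highest for Vim (13.212, next 13.065) and replicate 6 lowest for Rpp21 (10.397, next 10.551). At 9 weeks replicate 1 was highest for the matrix genes Spp1 (12.302, next 9.3397) and Lamb2 (12.847, next 12.238). Replicate 3 was lowest there for Apoa1 (9.6645, next 10.041), S100a8 (8.1652, next 8.9155) and Uchl1 (9.4583, next 9.9187).

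Among hearts banded for 30 weeks, replicate 4 was highest for Acads (12.191, next 11.627) and lowest for Apoa1 (9.7797, next 10.382), and replicate 2 was lowest for Itgb7 (11.342, next 11.637). Apoa1 was thus measured with a low array in both models.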

How the results depend on the processing

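No probe set was called for the difference of responses under quantile normalization, median subtraction, a floor of 64, a filter at a mean log2 of 7, the 30 arrays alone, array weights, trended variance, equal weighting of arrays, MI at 3 weeks alone, omission of AB at 30 weeks, or the nearest times. MI at 9 weeks alone gave 6, and the methods' analysis of variance 27 (21 higher after MI, 6 lower) after Benjamini-Hochberg and 3 after Bonferroni adjustment. Leaving out 1 array gave 0 to 15. The MI count of 171 became 96 with the 30 arrays alone, 481 with array weights and 66 to 293 with an array left out. The AB count of 460 became 270 with array weights and 310 (without AB 16-week sham replicate 4) to 604 (without AB 12-week sham replicate 4) with an array left out. The sham count of 595 became 385 with the 30 arrays alone, 1044 with array weights and 240 to 884 (without AB 12-week sham replicate 4) with an array left out. Omitting the 12-week AB arrays, an alternative chosen after seeing the data, gave 0 for the difference, 339 for AB and 407 for the shams. Under the other settings, apart from the replicate block below, these counts stayed within 1.5 times. The cause of the moves was not tested.

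The replicate numbers were not taken as a pairing of samples, and the labels do not say what they mark. Deviations of same-numbered arrays of different groups correlated at -0.347 to 0.409 (median 0.00674, 66 pairs, 15 over 0.1). Whether some numbers mark a shared batch was not tested. With the number as a block, 0 probe sets were called for the difference, 166 for MI, 11 for AB and 234 for the shams. At every AB time the banded hearts held lower numbers than their shams, and no number was shared. The block is therefore hard to separate from banding itself, and the AB values of this fit do not measure how stable that effect is. The AB effect then changed sign for Col1a2 (-0.0204, adjusted p = 0.995), Ppt1 (-0.0165, adjusted p = 0.995) and Timp1 (-0.0475, adjusted p = 0.985), which stood at 0.41, 0.27 and 0.47 without it.

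Over the genes that the rule names and all of these settings, 8920 values of the difference kept their direction and call or stayed within the spread, and 379 moved further. A pass appeared for 7: Cbr1, Nxf1, Tap1 and Ttc8 (adjusted p = 0.0379) by the methods' analysis of variance, and Nxf1, Eno1 and Tnfsf13 with 1 sham left out. MI effects lost their call in 336 cases and AB effects in 486.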
